A study of Drosophila melanogaster with 4 samples.

Results

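The 92 cytosolic ribosomal protein genes examined here are those of the main chromosome arms whose symbol begins with RpL or RpS in a RefSeq annotation of release 6 of the Drosophila melanogaster genome, out of 17684 genes on those arms. Of these, 54 are named for the large ribosomal subunit (RpL) and 38 for the small one (RpS). Nuclei of thoracic muscle enriched for flight muscle were profiled by ATAC-seq, an assay in which a transposase inserts sequencing adapters into accessible DNA. The animals were pharate adults kept at 25 °C and taken 96 hours after pupa formation, shortly before emergence, with at least 40 animals pooled per library. The mutant, labelled w[1118];Pgk[Delta.E2F]; + line 12, carries an altered E2F site upstream of Pgk, the gene of the glycolytic enzyme phosphoglycerate kinase, and is represented by 1 line. The control is w[1118], the strain background that the mutant shares. There were 2 libraries per genotype, called mutant 1 and 2 and control 1 and 2. The labels do not say whether the libraries of a genotype came from separate crosses, so their spread may be technical. The study concerns control of Pgk by E2F, a transcription factor best known for cell cycle genes, and the question put here is where chromatin at ribosomal protein genes was called open in each genotype.

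Each ribosome is built from a small subunit that reads the messenger RNA and a large subunit that joins amino acids, each made of ribosomal RNA and 1 copy of most ribosomal proteins. In flies the genes are scattered over all chromosomes, are expressed at high levels in nearly every tissue, and are classically known from the Minute mutants, in which loss of 1 copy slows growth. Several exist as duplicated pairs in which 1 copy serves most tissues and the other is best known from the germline. Growing flight muscle needs ribosomes to make the proteins of its myofibrils.

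A peak, as the authors deposited it, is an interval where the density of transposase cuts exceeded the local background of the same library. A gene was counted as called in a library when at least 1 bp of a peak fell in its window, the gene span plus 500 bp on each side. On the main arms, mutants 1 and 2 had 25528 and 25985 peaks, and controls 1 and 2 had 29341 and 29923. Relative depth was read from the background pileup recovered from the lists, 4.62 and 5.26 per position for the mutants versus 7.44 and 7.61 for the controls, so that the mutants were the shallower libraries and mutant 1 the shallowest. Genotype and this depth cannot be told apart by design, and with 2 libraries against 2 a two-sided exact permutation test cannot go below p = 0.333, so counts are given without a p-value. In bulk tissue, a site open in fewer cells and a site less open in each cell cannot be told apart either. All 10 flight muscle marker genes on the list were called in all 4 libraries, among them Act88F, fln, salm and Mhc. The share over all genes was 44.6%. Some of the markers, such as Mhc, are long, so their windows are wide. Of 12 matched marker genes of neurons, glia, fat body, trachea and germline, 11, 9, 10 and 12 were called in mutant 1, mutant 2, control 1 and control 2. Over all genes the shares in the same order were 56%, 55.6%, 60.1% and 61.3%. Marker calls alone therefore do not set muscle apart from other tissues here. Pgk itself was called in all 4 libraries, which does not check the labels, since the altered site is small.

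Ribosomal protein genes were called open in most cases in both genotypes. Peaks were called at 75 and 86 of the 92 genes in mutants 1 and 2, and at 87 and 85 in controls 1 and 2. Mutant 2 lay between the controls, so the genotypes overlapped, and mutant 1 stood below the other libraries. The shares were 81.5% and 93.5% in the mutants versus 94.6% and 92.4% in the controls, against 56% and 55.6% of all genes in the mutants versus 60.1% and 61.3% in the controls. The mean was 80.5 ± 7.78 genes in the mutants and 86 ± 1.41 in the controls (SD, n = 2 each), a difference of -5.5 genes that was smaller than the spread between the mutants. Without mutant 1 the difference was 0, and without mutant 2 it was -11.

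**Figure D1:**
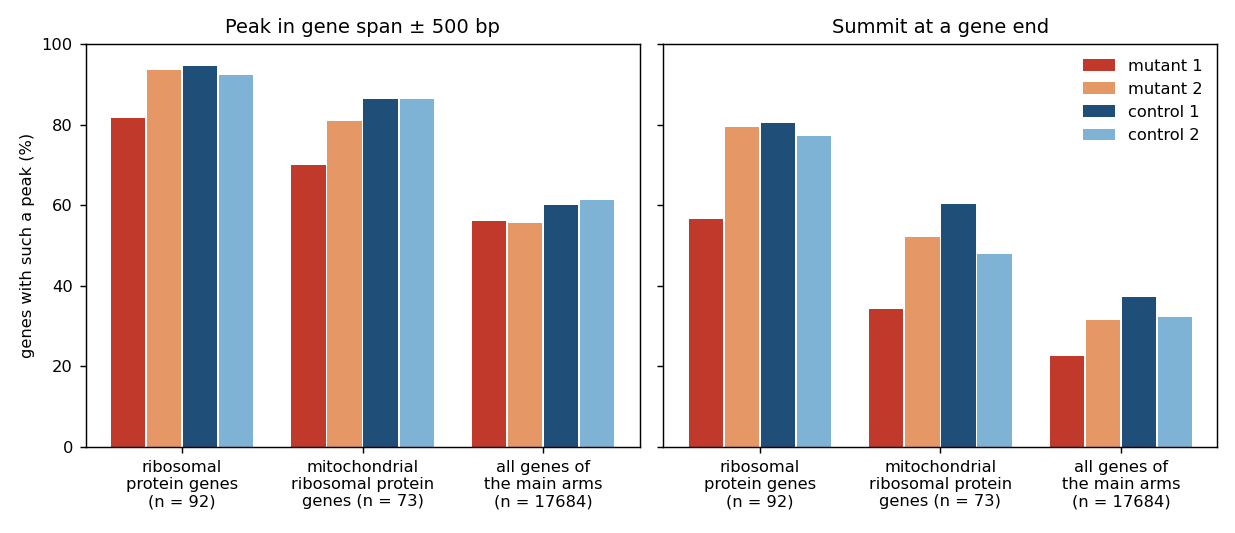
Share of genes (y axis, percent) with a peak in the gene span plus 500 bp on each side (left) and with a peak summit at a gene end (right), for 92 ribosomal protein genes, 73 mitochondrial ribosomal protein genes and all 17684 genes of the main arms; each bar is 1 library. Ribosomal protein genes stand at 81.5% to 94.6% on the left, and mutant 1 is the lowest library for both ribosomal protein groups in both panels.

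A peak was called in all 4 libraries at 72 of the 92 genes (78.3%), against 44.6% of all genes and 49% of protein-coding genes. No library had a peak at 3 genes, RpL10Aa, RpL22-like and RpL37-2, or 3.26%, against 28.8% of all genes. The 73 mitochondrial ribosomal protein genes, whose products build the separate ribosome inside mitochondria, were called at 51 and 59 genes in the mutants and at 63 in each control. The median ribosomal protein gene spans 1315 bp, against 2163 bp for protein-coding genes, so the windows were shorter than most. A window rarely held that gene alone, since 83 of the 92 windows overlapped at least 1 other annotated gene, and 4 of them another ribosomal protein gene.

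Most of the strongest peaks of these genes sat at a gene end. A peak was placed at a gene end when its summit, the point of highest signal, lay between 250 bp outside and 50 bp inside either end of the gene; the annotation used gives no strand, so starts and stops of transcription were not separated. In mutants 1 and 2, 52 and 73 of the 92 genes had such a peak, and in controls 1 and 2, 74 and 71 had one. These are 56.5% and 79.3% in the mutants versus 80.4% and 77.2% in the controls, against 22.6% and 31.5% of all genes in the mutants versus 37.1% and 32.3% in the controls. In all 4 libraries together 50 ribosomal protein genes (54.3%) had an end peak, against 19.6% of all genes and 21.9% of protein-coding genes. An end peak in no library was found for 15 of the 92, against 10318 of all 17684 genes and 27 of the 73 mitochondrial ribosomal protein genes. The strongest peak of a called gene had its summit at a median of 109 and 48 bp from the nearest end in the mutants, and 50 and 52 bp in the controls, against 358 and 258 bp in the mutants and 244 and 283 bp in the controls for all called genes. Short genes leave less room for summits far from an end, which bears on this last comparison. Of the strongest peaks at a gene end, 21 of 47 and 26 of 61 in the mutants versus 26 of 59 and 24 of 57 in the controls lay at an end of a second gene as well. Over all genes the counts were 1190 of 2848 and 1784 of 4023 in the mutants versus 2123 of 4615 and 1761 of 4046 in the controls. Such sharing was thus about as frequent over all genes.

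**Figure D2:**
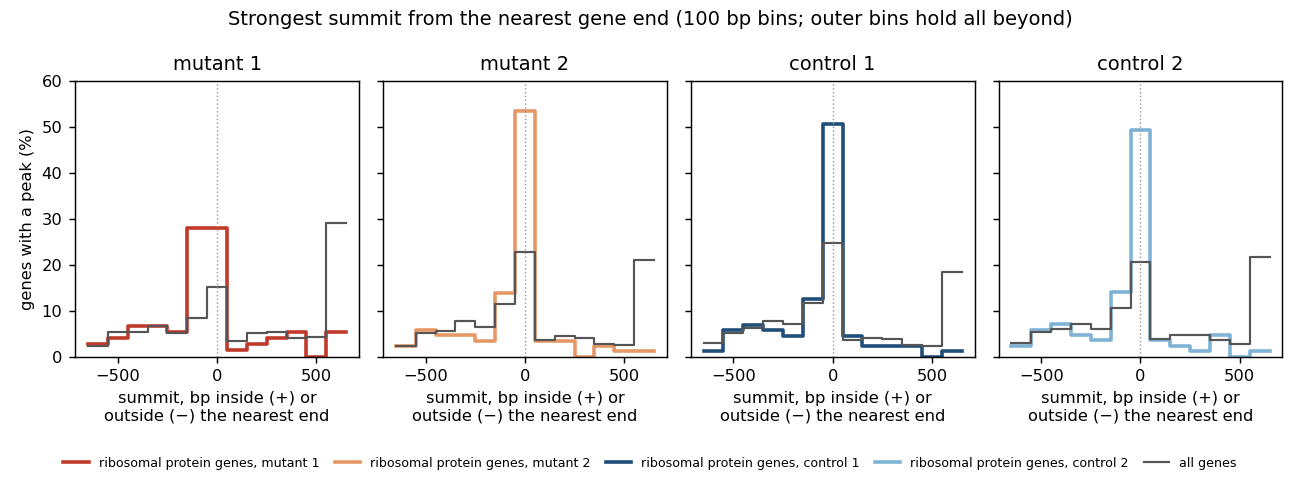
Distance of the summit of the strongest peak from the nearest gene end (x axis, bp, negative outside the gene and positive inside, in 100 bp bins with all values beyond the range in the outer bins) as a percentage of called genes (y axis), for ribosomal protein genes in colour and all genes in grey, 1 panel per library. The bin around the gene end holds 21 of 75 called ribosomal protein genes in mutant 1, 46 of 86 in mutant 2, 44 of 87 in control 1 and 42 of 85 in control 2.

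The summits recurred at the same place. Among the 72 genes called in all 4 libraries, the strongest summits of the libraries lay within 50 bp of each other at 50 genes (69.4%), against 53.6% of the 7892 genes so called in all, and the median range was 24 bp, against 39 bp. For the 46 mitochondrial ribosomal protein genes so called, the share within 50 bp was 60.9% and the median range 24.5 bp. At 7 of the 72 the range exceeded 500 bp (9.72%, against 27.5% of the genes so called in all). At those 7, different peaks of the window were strongest in different libraries. Short windows leave less room for a wide range, and the part of this in the comparison with all genes was not tested. RpL17, a large-subunit gene on X, had the widest range, 3085 bp: peaks were called at both of its ends in all 4 libraries, and which was stronger differed.

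Among the 5 genes with the strongest peaks were RpL4, RpL7, RpL34b and RpL11. Peaks were ranked within each list by the authors' −log10 p, and a percent rank of 1 places a peak in the top 1% of its list. The strongest peak of a called ribosomal protein gene had a median percent rank of 20.1 and 14.9 in the mutants versus 11.9 and 14.2 in the controls, against 28.6 and 24.0 in the mutants versus 21.4 and 22.2 in the controls over all called genes. For mitochondrial ribosomal protein genes the medians were 31.2 and 30.7 in the mutants versus 22.4 and 24.3 in the controls. A peak within the top 10% of the list was found at 27 and 36 of the 92 genes in the mutants versus 37 and 35 in the controls, which is 29.3% and 39.1% in the mutants versus 40.2% and 38.0% in the controls, against 13.5% and 14.8% of all genes in the mutants versus 17.3% and 17.4% in the controls.

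RpL4 encodes a protein that lines the exit tunnel of the large subunit and had the best mean percent rank, 0.852. Its strongest peak had fold enrichments of 14.9 and 14.4 in the mutants versus 17.1 and 16.3 in the controls. The peak lay at 3R:27924895-27925256, just outside the high-coordinate end of RpL4 (3R:27922821-27924888), and overlapped the neighbours mino and lncRNA:CR45566. At the opposite end of RpL4 a weaker peak was called in all 4 libraries, with fold enrichments of 3.77 and 4.80 in the mutants versus 4.44 and 4.16 in the controls. The strong peak is therefore not shown to belong to RpL4.

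RpL7 (2L:10201004-10202321), of the large subunit, had peaks of 15.5- and 23.0-fold in mutants 1 and 2 and 27.4- and 22.1-fold in controls 1 and 2. They covered 181 to 194 bp across the low-coordinate end of the gene, with summits 13 to 19 bp inside it, and the same interval reaches the neighbour Ripalpha. RpL34b (3R:9400237-9401226) had 12.8- and 20.9-fold enrichment in the mutants versus 23.5- and 20.5-fold in the controls, with all 4 summits 23 to 26 bp outside its high-coordinate end. These RpL34b summits also lay at an end of another gene. At RpL7 and at RpL34b the strongest summits thus fell at nearly the same point in all 4 libraries. Weaker peaks inside the gene were also called, in mutant 1 at RpL7 and in all 4 libraries at RpL34b. RpL11 (2R:19442342-19443825), whose product joins the 5S ribosomal RNA to the large subunit, had 12.3- and 19.5-fold enrichment in the mutants versus 23.9- and 20.5-fold in the controls. At RpL7, RpL34b and RpL11 mutant 1 had the lowest of the 4 fold enrichments; the authors' fold enrichment is set against each library's own background, and its differences between libraries were not tested.

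**Figure D3:**
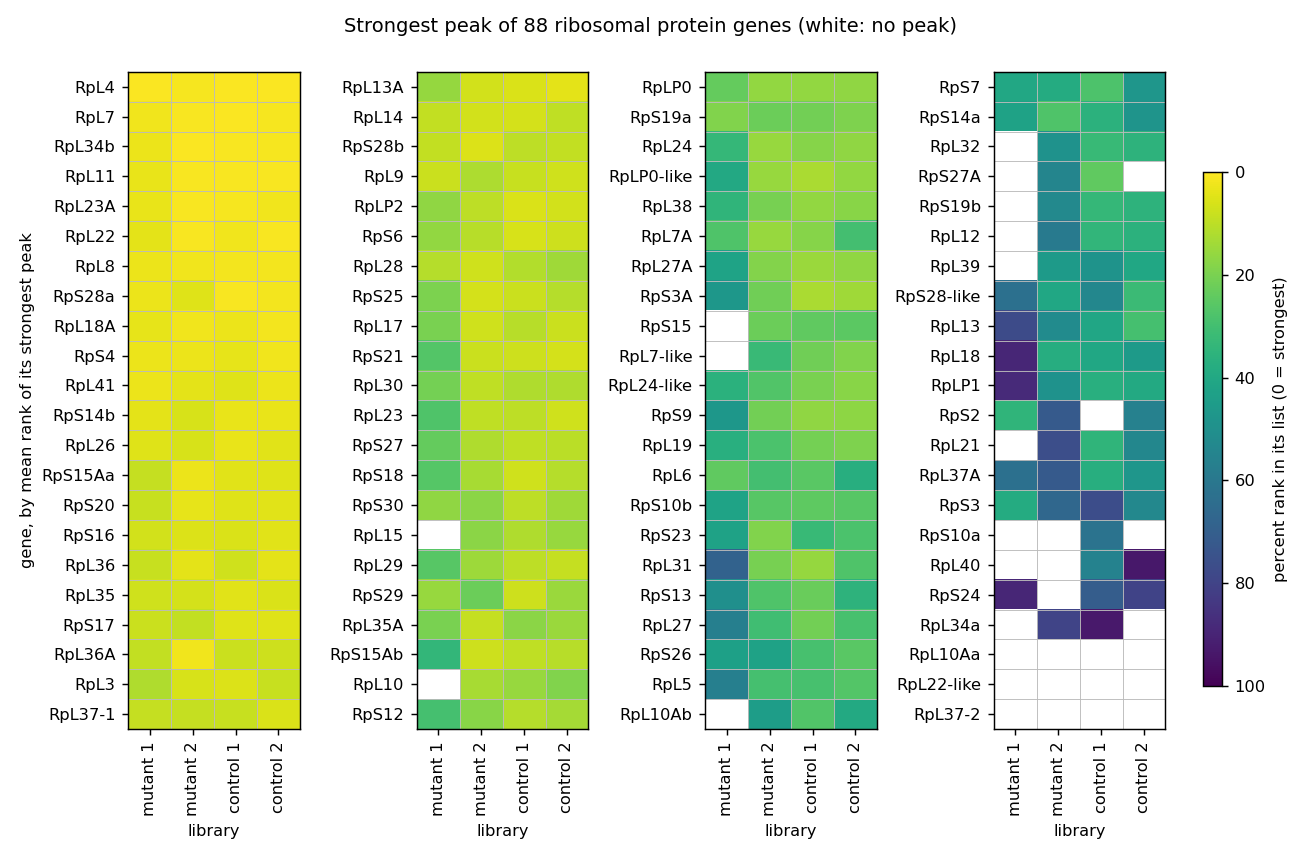
Percent rank, within each library's list, of the strongest peak of 88 of the 92 ribosomal protein genes (colour, 0 is strongest, white is no peak), with genes down the page by mean rank over the libraries in which they were called and the 4 libraries across. White cells are most frequent in the column of mutant 1, and the 3 genes at the foot of the last block have no peak in any library.

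The weakest of the 72 genes called in all 4 libraries were RpS3, RpL37A, RpLP1, RpL18 and RpL13, with mean percent ranks of 58.7, 54.9, 53.3, 53.2 and 49.8. RpS3 (3R:23358812-23360207), a small-subunit protein near the entry of the messenger RNA, had fold enrichments of 4.30 and 3.67 in the mutants versus 2.98 and 3.35 in the controls. Its peak covered 162 and 212 bp in the mutants and 270 and 260 bp in the controls, in the middle of the gene, with summits 597 to 669 bp inside the nearest end. RpLP1 (2L:419952-420864), an acidic protein of the stalk that recruits elongation factors, had 2.95- and 4.38-fold enrichment in the mutants versus 5.08- and 4.20-fold in the controls. The other stalk genes ranked higher. RpLP2 had 5.43- and 7.89-fold enrichment in the mutants versus 10.1- and 9.10-fold in the controls, and RpLP0 had 5.69- and 8.69-fold in the mutants versus 9.34- and 7.85-fold in the controls. The strongest RpLP2 peak lay outside the gene, with summits 330 to 370 bp beyond its end. The strongest RpLP0 peak lay 204 to 223 bp inside the gene, and RpLP0 had an end peak in no library.

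The most peaks per window were found at RpS9 and RpS21. RpS9 (3L:9509793-9511531) had 2 and 4 peaks in the mutants versus 6 and 5 in the controls, so that both mutants had fewer. RpS21 (2L:2856070-2857029) had 2 and 4 peaks in the mutants and 4 in each control. RpL26 and RpS14b were among those that followed, with a mean of 3 peaks each. Over the whole group, the windows held 118 and 152 peaks in the mutants versus 171 and 159 in the controls, each peak counted once. The mean was 135 ± 24.0 peaks in the mutants and 165 ± 8.49 in the controls (SD, n = 2 each), a difference of -30 peaks, with no overlap between the genotypes. The mutant mean was 0.818 times the control mean for these windows and 0.859 times for the windows of all genes, and as a share of each list the windows held 0.462% and 0.585% of peaks in the mutants versus 0.583% and 0.531% in the controls, which overlapped. Without mutant 1 the difference was -13 peaks, and without mutant 2 it was -47. Fewer peaks in both mutants than in both controls were found at 11 of 89 genes with any peak (12.4%), against 13.3% of 12590 genes in all, and more peaks at 3 (3.37%), against 3.11%.

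Genotype-specific calls were 2 in number. In both mutants and neither control 1 gene was called, 1.09% of the 92 genes, against 0.707% of all genes. RpL40 was called in both controls and neither mutant, likewise 1.09%, against 2.31% of all genes. Counted among genes with a peak in both libraries of 1 genotype, these were 1 of 74 for the mutants (against 1.49% of 8370 genes) and 1 of 84 for the controls (1.19%, against 4.18% of 9763 genes). At RpL40 (2L:4227699-4228561), which encodes a large-subunit protein fused to ubiquitin, control 1 had a 4.15-fold peak across the low-coordinate end and control 2 a 2.55-fold peak in the middle of the gene, near the foot of its list at a percent rank of 93.7. In neither of these 2 genes did the libraries with a call share a peak. RpL40 was no longer called in both controls in lists cut to equal length or with peaks rescaled to the background of mutant 1, and no gene was mutant-only with the gene span alone or with a 1000 bp flank. Without mutant 2, 11 genes were control-only, namely RpL40 and the 10 genes called in every library but mutant 1. Over all 17684 genes, 408 and 991 had these 2 patterns. RpS27A (2L:10408352-10410456), the small-subunit ubiquitin fusion gene, was called in mutant 2 and control 1 only. Those libraries shared a peak at its low-coordinate end, of 4.31-fold in mutant 2 and 7.94-fold in control 1, and mutant 2 had a further peak of 4.47-fold near the opposite end.

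**Figure D4:**
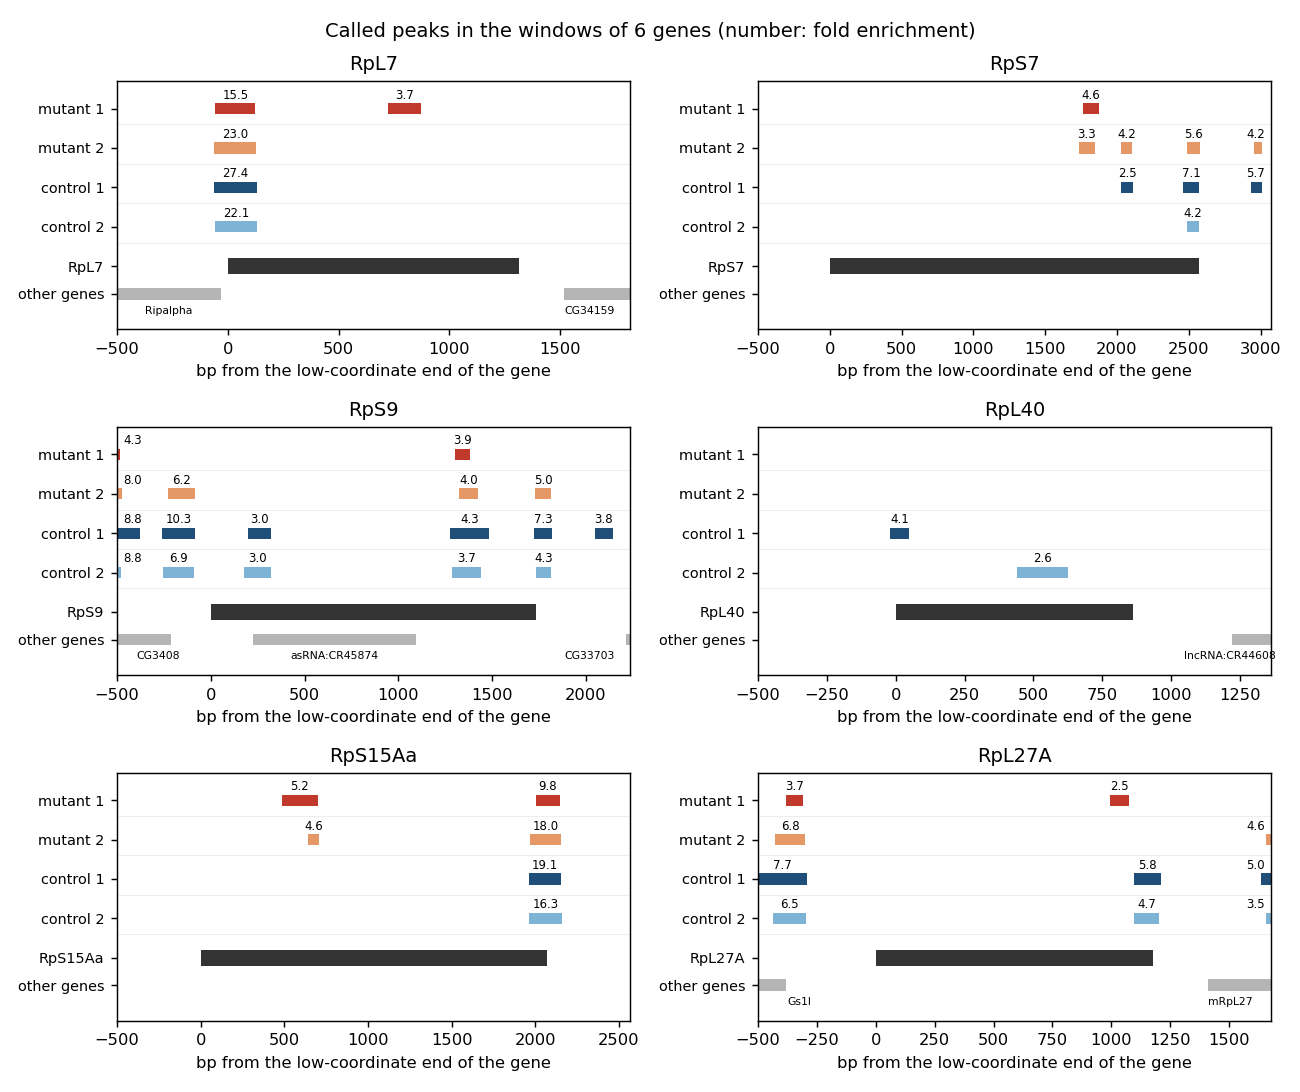
Called peaks (coloured bars, 1 row per library, with the authors' fold enrichment above each) in the windows of RpL7, RpS9, RpS15Aa, RpS7, RpL40 and RpL27A, with the gene in black and other annotated genes except snoRNA genes in grey; the x axis is the distance in bp from the low-coordinate end of the gene. RpL7 has a peak at the same end in all 4 libraries, RpS15Aa and RpS7 each have an interval inside the gene called in both mutants only, the peaks of RpL40 do not coincide between the controls, and RpL27A has an interval at its high-coordinate end called in both controls only.

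When the peaks of the 4 lists were joined into merged regions, the windows held 218 regions. Of these, 85 (39%) had a peak in all 4 libraries, against 30.3% of the 44429 merged regions of the main arms, and 38 (17.4%) had one in every library but mutant 1, against 9.14%. In both mutants and neither control 4 regions had a peak (1.83%, against 1.76% of all), and in both controls and neither mutant 6 had one (2.75%, against 5.93% of all). These 10 regions are named because they are few and were chosen after their values were seen. The mutant-only regions lay inside RpS15Aa, RpS7, RpL8 and RpS18. At RpS15Aa, on X:13336121-13336342, the peaks of mutants 1 and 2 had fold enrichments of 5.16 and 4.63, and at RpS7, on 3R:30208180-30208319, they had 4.62 and 3.31. The regions in RpL8 (3.99- and 2.59-fold) and RpS18 (3.16- and 2.60-fold) were weaker. Control-only regions lay in the windows of RpL27A, RpS24, RpS9, RpS30, RpS28a and RpL37-1. The strongest, on 2L:4458281-4458397 near the high-coordinate end of RpL27A, had fold enrichments of 5.79 and 4.69 in controls 1 and 2. Close beside it, on 2L:4458181-4458260 inside the gene, mutant 1 alone had a peak of 2.49-fold. RpL27A was the 1 ribosomal protein gene (1.09%, against 2.42% of all genes) with an end peak in both controls and neither mutant. No ribosomal protein gene had an end peak in both mutants and neither control, against 0.317% of all genes. The RpS28a region lay in the neighbouring gene Axn. All of these genes but RpS24 and RpS7 had another region with a peak in all 4 libraries; in mutant 1 the mutant-only region held the 1 peak of RpS7.

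The most frequent incomplete pattern was absence from mutant 1 alone. The 10 genes called in every library but mutant 1 were RpL7-like, RpL10, RpL10Ab, RpL12, RpL15, RpL21, RpL32, RpL39, RpS15 and RpS19b, 10.9% of the group against 5.6% of all genes. Since ribosomal protein genes are called so often, the comparison was also made among genes with a peak in the other 3 libraries, where mutant 1 lacked 10 of 82 (12.2%), against 11.2% of 8883 genes. At gene ends mutant 1 alone lacked the peak at 19 genes (20.7%, against 7.56% of all genes), which is 19 of the 69 with an end peak in the other 3 libraries (27.5%), against 27.9% of 4800 genes. Both gene-level shares were close to the background. By merged region the share was higher, with 38 of the 123 regions that had a peak in the other 3 libraries lacking one in mutant 1 (30.9%), against 23.2% of 17533 regions. RpL15, a large-subunit gene on 3L, had the best mean percent rank of the 10, with fold enrichments of 8.94 in mutant 2 and 12.7 and 9.41 in the controls. RpL32 (3R:30045229-30046161), whose messenger RNA is a common reference in fly expression assays, had 4.19-fold enrichment in mutant 2 and 5.33- and 4.33-fold in the controls, with the 3 summits 31 bp outside its high-coordinate end. RpL12 and RpL39 overlap each other on 2R, and each had its own peak at its outer end. At RpS19b the counted peaks lay outside the gene, in a region overlapping the neighbour CG5854. Mutant 1 also had a peak in that region, of 2.54-fold, but beyond the 500 bp flank.

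Other incomplete patterns were few. RpS2 was called in all libraries but control 1, with fold enrichments of 4.98 and 3.67 in the mutants and 3.72 in control 2, inside the gene. RpS24 was called in all but mutant 2, with 2.95 in mutant 1 and 3.26 and 2.89 in the controls. RpL34a was called in mutant 2 (3.22-fold) and control 1 (2.56-fold), and RpS10a in control 1 alone (3.25-fold).

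Ranks were compared between libraries in lists cut to the same length, the 25528 strongest peaks of each. Of 72 ribosomal protein genes ranked in all 4 such lists, 22 (30.6%) had a weaker rank in both mutants than in both controls, against 31.2% of 7652 genes. In the opposite order, with both mutants stronger, were 4 genes (5.56%), against 10.3%. Among these 4, named because they are few and chosen after their values were seen, were RpL28, RpS28b and RpS19a. RpS19a had percent ranks of 19.0 and 22.7 in the mutants versus 24.5 and 22.8 in the controls, so mutant 2 and control 2 were nearly equal. Its ranked peak lay outside the gene and overlapped the neighbour Rok in all 4 libraries. At the end of RpS19a itself no peak was called in mutant 1. Peaks there had 3.59-fold enrichment in mutant 2 and 2.90- and 3.13-fold in the controls. RpS28b had percent ranks of 9.23 and 5.28 in the mutants versus 11.5 and 10.6 in the controls, and RpL28 had 11.2 and 7.40 in the mutants versus 13.0 and 16.5 in the controls. Among the 22 was RpS6, the small-subunit protein phosphorylated by S6 kinase downstream of TOR, with 16.4 and 11.02 in the mutants versus 6.94 and 8.73 in the controls. Its strongest peak had summits more than 500 bp outside RpS6 and overlapped an end of the neighbour bys, whereas at the end of RpS6 itself peaks of 7.51-fold in mutant 2 and 9.00- and 7.20-fold in the controls were called. Mutant 1 held the weakest rank of the 4 libraries at 48 of the 72 genes (66.7%), against 45.3% of the 7652.

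In 8 of 13 duplicated pairs the copies differed in their calls over the 4 libraries. Pairs were matched by gene name, and a gene named -like is not shown to have the same role as its partner. Of the 13 pairs, the copy that serves most tissues, or the first of equals, was called in all 4 libraries in 12 cases, RpL10Ab being the exception in mutant 1. The other copy was called in all 4 libraries in 5 of 13 cases and in none in 3, beside 44.6% and 28.8% of all genes. Other copies are shorter, with a median of 843 bp against 1445 bp for the main copies, so their windows are narrower. RpL22, on X, had a peak at its high-coordinate end of 10.6- and 16.9-fold in the mutants versus 15.7- and 17.5-fold in the controls, while RpL22-like, known from the testis, had no peak in any library. The RpL22 summits also lay at an end of another gene in all 4 libraries. RpL34b ranked among the strongest and RpL34a among the weakest of the group. RpL37-1 had 9.78- and 12.3-fold enrichment in the mutants versus 15.04- and 15.21-fold in the controls, and RpL37-2 had no peak.

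In 5 pairs both copies had peaks in all 4 libraries, and in the RpS14 and RpS28 pairs the second copy had the better mean percent rank. Some of the second copies lay beside strong peaks of other genes. At RpS28a, a gene of 304 bp, the peaks of 10.8- and 10.9-fold in the mutants versus 17.7- and 13.7-fold in the controls lay outside the gene and overlapped Mgat2, and a further one overlapped Axn. At RpS15Ab the strongest peak, of 4.65- and 12.1-fold in the mutants versus 12.7- and 10.7-fold in the controls, ended 1 bp before the gene and overlapped Lsm10. RpL24-like and RpLP0-like, whose yeast counterparts act in ribosome assembly, also had peaks in all 4 libraries. At the end of RpL24-like the fold enrichments were 4.03 and 6.34 in the mutants versus 7.80 and 7.15 in the controls. In mutant 1 the strongest peak of the window, of 4.22-fold, was a different one. It overlapped the neighbour CG5276, where a peak was called in all 4 libraries. RpS14a and RpS14b lie in tandem on X and encode the same protein, and reads of such near-identical copies may not be placed with certainty. They shared the peak between them, on X:7934802-7934896, with fold enrichments of 3.23 and 4.34 in the mutants versus 3.40 and 2.78 in the controls. The stronger peaks in the RpS14b window overlapped the neighbour Ubr3.

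**Figure D5:**
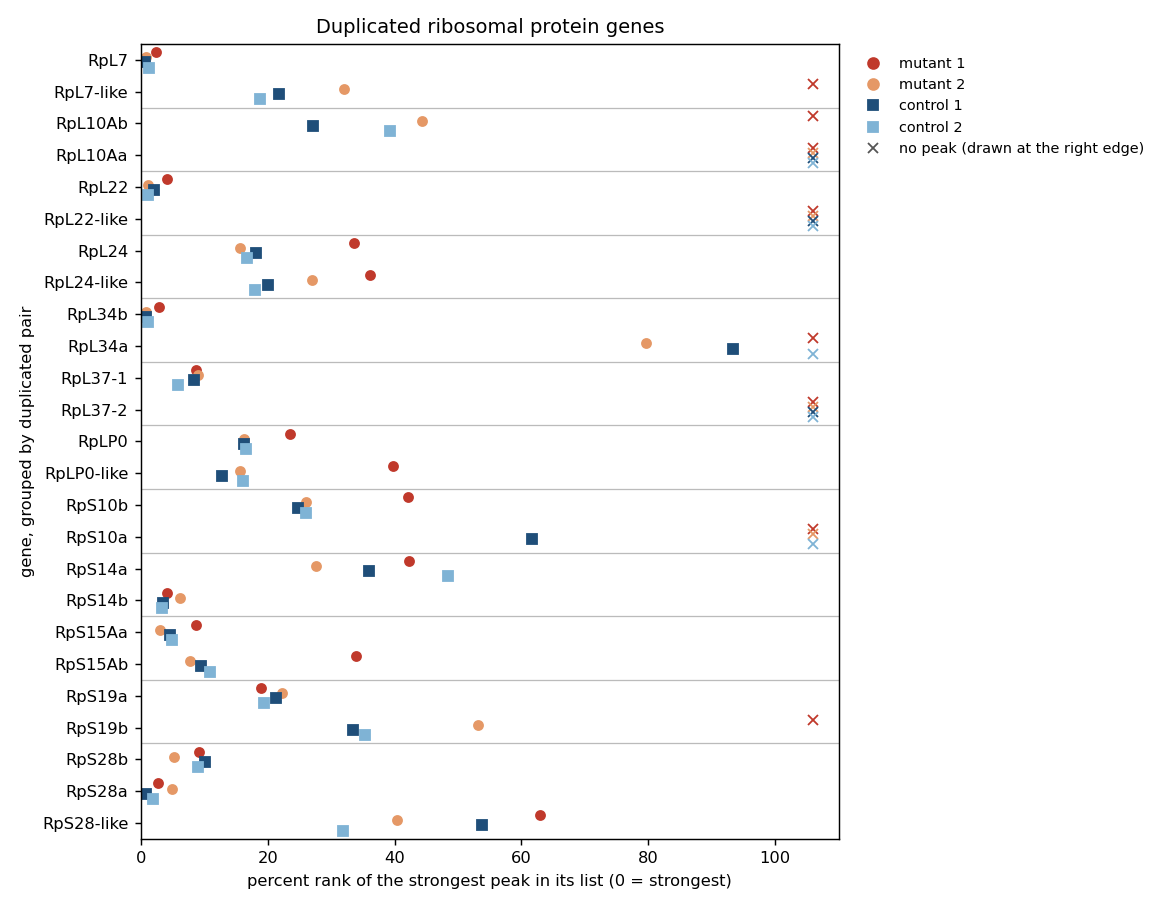
Percent rank of the strongest peak (x axis, 0 is strongest) of the genes of 12 duplicated pairs, grouped by pair down the page, with circles for mutants, squares for controls and crosses at the right edge for no peak. In the pairs RpL22, RpL34, RpL37 and RpS10 the copy listed first has a peak in all 4 libraries and the copy listed second lacks one in at least 2.

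By chromosome arm, all 14 ribosomal protein genes on X were called in all 4 libraries, as were 14 of 19 on 2L, 15 of 21 on 2R, 11 of 14 on 3L, 17 of 23 on 3R and the 1 gene on chromosome 4. Among all genes the share so called was 49.4% on X, 40.7% on 2L, 47.5% on 2R, 42.4% on 3L, 44.4% on 3R and 39.5% on chromosome 4, so X was also the highest arm for all genes, and the difference between arms was not tested. By subunit, 41 of 54 large-subunit and 31 of 38 small-subunit genes were so called. Introns of ribosomal protein genes often hold snoRNA genes, which guide the modification of ribosomal RNA, and 28 of the 92 genes enclosed 74 of the 269 annotated snoRNA genes of the main arms. RpS7, for one, enclosed 7. Of these 28 host genes, 26 (92.9%) were called in all 4 libraries, against 46 of the 64 others (71.9%). Host genes are longer, with a median of 1887.5 bp against 1125.5 bp, so their windows are wider, and the part of this in the difference was not tested.

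Other genes of translation were called in most libraries. Of 12 genes of initiation and elongation factors, 10 and 11 were called in the mutants versus 12 and 11 in the controls, and 9 were called in all 4 libraries, against 44.6% of all genes. Of the 12, 1 gene was control-only, against 2.31% of all genes, namely eEF1delta, which encodes a subunit of the exchange factor of elongation factor 1 and had 1 peak in each control and none in the mutants. In a list of 14 ribosome biogenesis genes, among them Fib (the nucleolar methyltransferase fibrillarin) and Nop56, 14 and 12 were called in the mutants and 14 in each control, with NHP2 and RIOK1 lacking a peak in mutant 2. All 11 matched genes of regulators tied to ribosomal protein genes or growth, including Dref, M1BP, Trf2, Myc and S6k, were called in all 4 libraries, against 44.6% of all genes. Some of them, such as Trf2, are long, so their windows are wide. The strongest peak in the Dref window overlapped RpL13 and not Dref in all 4 libraries. Likewise the 1 peak of Mybbp1A, on the biogenesis list, overlapped RpL36 and not Mybbp1A.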

How the data were processed

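ATAC-seq peak lists of 4 libraries, 2 per genotype, were deposited by the authors, 1 list per library, so peaks were not called on pooled replicates. Per the submitters' processing notes, the tools included cutadapt 2.3, Bowtie2 2.4.1, Picard and MACS2 2.2.7.1, and the build was BDGP6; settings, duplicate handling and any shift of reads for the transposase cut are not given in the sources used here, and such a shift would move peak borders by a few bases. For each peak the authors deposited a fold, which is a ratio to the library's own background, its significance as −log10 p and as −log10 q, and a score that was not used. The lowest −log10 q was 2.01 to 2.06.

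Genes came from a RefSeq table of release 6, which gives no strand. No sequence was used, so promoter motifs were not analysed here. Merged regions joined peaks sharing at least 1 bp. Summit pileup and background were solved from fold and −log10 p under a Poisson model (whole pileups within 0.001 for 100% of peaks with −log10 p up to 250). In the rescaled alternative, pileup and background of each peak were scaled to the background of mutant 1 and the peak kept if it still passed. This rests on 1 statistic, and the lists left still held 25528 and 25959 peaks in the mutants but 27659 and 27864 in the controls, so equal depth is not shown. On simulated lists over 1088 genes, 0 window calls were wrong. Those genes were chosen to lie apart from other genes, so the simulation checks the counting only and not the assignment of peaks between neighbours. No count of reads is given, and the 2 replicates of a group limit the precision. Python 3.11.15, numpy 2.4.6, pandas 2.3.3 and scipy 1.17.1 were used.

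The members and lists were chosen with earlier results of these data known. Genes were named by rule: genotype-specific calls, members with no peak, the 5 best and 5 worst mean ranks, the 3 with most peaks, duplicated pairs, stalk and ubiquitin-fusion genes, RpL32, RpS6 and RpS3, and incomplete patterns where 10 or fewer. RpL17, RpL15, eEF1delta and Mybbp1A with RpL36 as single examples, and the genes of genotype-specific regions or rank orders, were chosen after their values were seen. Alternatives were stricter q, equal list length, rescaled background, other windows and leaving out each library. The names Tor and nos were not matched in the gene table and were not used here. A few members are counted in all totals but are not reported here by name.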

Additional observations from a re-analysis of the deposited data

How the results depend on the processing

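Of 66 alternative values of the 6 main counts and differences, 56 stayed within the spread between replicates or within 1.5 times the count, and 10 moved, all of them counts of genotype-specific genes whose main value is 1. Leaving out 1 of 2 libraries shifts a group mean by less than the spread between them, and a replicate block leaves a difference unchanged. Those values of the differences therefore could not count as moved, and even a difference of 0 counted as unmoved. Control-only genes numbered 0 at equal list length, 0 with peaks rescaled to the background of mutant 1, 0 with a 1000 bp flank and 2 with the gene span alone. Mutant-only genes numbered 0 with the 1000 bp flank and 0 with the gene span alone. Leaving out each library in turn gave 1 to 11 control-only and 1 to 2 mutant-only genes, since a genotype with 1 library left admits each call of that library. The same steps moved the difference in called genes between -11 and 0 and the difference in peaks between -47 and -13. Genes called in all libraries numbered 53 with the gene span alone, 69 with −log10 q of at least 5 and 72 with the rescaled peaks. End peaks in all 4 libraries fell at 40 genes when the summit had to lie within 100 bp of an end.

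Pairing libraries of the same number (a replicate block) gave differences of -5.5 genes and -30 peaks, equal to the unpaired ones, and no test was made, since an exact test of 2 pairs cannot go below p = 0.5. The labels do not say that a number marks a shared preparation, and over 44429 merged regions the correlation of mutant 1 minus mutant 2 with control 1 minus control 2 was -0.0960, so no pairing was assumed. The lists give peaks and no reads, so a gene without a peak is not shown to be closed. Whether weak peaks were less detectable at the lower recovered background of the mutants was not tested.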
